A study of Mus musculus with 55 samples.

Results

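The Kcnq1 imprinted cluster of distal mouse chromosome 7 was followed through single oocytes and through embryos derived from mutant oocytes. Its 10 members were taken by name, Kcnq1ot1, Kcnq1, Cdkn1c, Phlda2, Slc22a18, Osbpl5, Tssc4, Cd81, Ascl2 and Dhcr7, and all 10 were found among the 51734 genes of the oocyte count tables and among the 24421 genes of the allele-specific embryo tables. The study asked how mutation of the ADD domain, the part of DNMT3A and of DNMT3L that reads unmethylated lysine 4 of histone H3, alters the germ line and its imprints.

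Fully grown oocytes (FGOs) came from females of 10 to 12 weeks, and each library was made from 1 oocyte. There were 18 wild-type (WT) FGOs, 8 Dnmt3L ADD/ADD FGOs (homozygous for the D124A change in DNMT3L, with normal Dnmt3a), 8 Dnmt3a ADD/ADD FGOs (labelled Dnmt3aADA/ADA, with normal Dnmt3L), 8 double mutant FGOs homozygous for both alleles, and 10 WT oocytes in metaphase II (MII), the stage reached after maturation. The 3 embryos were labelled as of embryonic day 9. They arose by in vitro fertilization of double mutant oocytes of largely C57BL/6J descent with sperm of the JF1 strain. Their maternal allele thus passed through a double mutant oocyte and their paternal allele was wild type. They developed in pseudo-pregnant recipient females of the ICR strain, so any decidua comes from the recipient and not from the double mutant mother. Columns of the same tables that are named for wild-type embryos match no sample of the series and were not used here, so the shares have no wild-type reference and each embryo value is therefore read against other genes of the same embryo. The females that gave each oocyte are not named in the labels, so the p-values measure the spread between libraries. The labels give no donor age for the MII oocytes. For MII oocytes the paper's methods describe injection of females with inhibin antiserum and chorionic gonadotropin, and for FGOs they describe none. Stage, hormone treatment and donor age therefore cannot be told apart between MII oocytes and FGOs.

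In this cluster a control region inside Kcnq1, the KvDMR, acquires DNA methylation in the growing oocyte and stays unmethylated in sperm. The promoter of Kcnq1ot1, a very long noncoding RNA read antisense to Kcnq1, lies in that region. In normal embryos Kcnq1ot1 is therefore transcribed from the paternal chromosome, where it silences neighbouring genes in cis, while the methylated maternal chromosome expresses them. Kcnq1, Cdkn1c, Phlda2 and Slc22a18 are known as maternally expressed in the embryo, and the outer genes Osbpl5, Tssc4, Cd81, Ascl2 and Dhcr7 are known for a maternal bias that is found mainly in the placenta. The oocyte holds only maternal chromosomes, so its libraries give levels and not parental shares.

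The members lie on mm10 between the start of Ascl2 at chr7:142966829-142969264 and the end of Dhcr7 at chr7:143823145-143848410. Kcnq1 at chr7:143106362-143427042 is on the plus strand, and the single exon of Kcnq1ot1 at chr7:143212155-143296549, 84395 bases on the minus strand, lies almost wholly within its introns. The exons of the pair overlap over 121 bases, which make up 2.96% of the exonic length of Kcnq1. The oocyte kit does not mark strand, so oocyte reads of the pair cannot be told apart there. Reads of unspliced Kcnq1 RNA from the span of Kcnq1ot1 would also be counted as Kcnq1ot1. Their part in the oocyte levels of Kcnq1ot1 was not tested. Exons of Cdkn1c, Tssc4 and Cd81 overlap genes of the opposite strand over 30.7%, 11.9% and 3.61% of their length.

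The letters before 4 of the transcription starts are given here, because these are the RNA made from the control region and members on which the results turn. Each run is the 250 bases before a RefSeq start on GRCm38.p6, written 5′ to 3′ on the strand of the gene, with CG dinucleotides, the usual substrate of DNA methylation, in capitals. RefSeq windows were matched for 8 of the 10 members.
Kcnq1ot1, chr7:143296548-143296797, minus strand: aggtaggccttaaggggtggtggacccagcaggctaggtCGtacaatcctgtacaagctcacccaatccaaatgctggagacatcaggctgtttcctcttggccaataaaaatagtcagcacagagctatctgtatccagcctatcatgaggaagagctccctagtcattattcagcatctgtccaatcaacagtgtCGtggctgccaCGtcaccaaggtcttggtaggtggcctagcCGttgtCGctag
Phlda2, chr7:143502525-143502774, minus strand: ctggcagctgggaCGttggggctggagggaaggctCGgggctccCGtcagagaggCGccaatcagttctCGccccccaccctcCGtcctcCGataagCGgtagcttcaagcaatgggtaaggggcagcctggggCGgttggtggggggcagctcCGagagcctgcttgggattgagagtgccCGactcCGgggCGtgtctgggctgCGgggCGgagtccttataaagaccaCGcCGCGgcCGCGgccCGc
Osbpl5, chr7:143757009-143757258, minus strand: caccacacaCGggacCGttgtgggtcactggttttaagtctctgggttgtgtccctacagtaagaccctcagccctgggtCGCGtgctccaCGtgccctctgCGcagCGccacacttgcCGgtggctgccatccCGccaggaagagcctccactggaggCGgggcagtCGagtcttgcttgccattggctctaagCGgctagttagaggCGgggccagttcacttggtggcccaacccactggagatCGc
Slc22a18, chr7:143473539-143473788, plus strand: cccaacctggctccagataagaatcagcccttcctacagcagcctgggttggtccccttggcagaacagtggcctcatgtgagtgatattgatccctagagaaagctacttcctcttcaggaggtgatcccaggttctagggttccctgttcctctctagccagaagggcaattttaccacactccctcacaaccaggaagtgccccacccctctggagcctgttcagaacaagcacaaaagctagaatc
The Kcnq1ot1 window holds 5 CG dinucleotides, near the median of 6 over 32817 such windows of the genome. The Phlda2 window holds 21 and the Osbpl5 window shown holds 14, more than 83.7% and 70.7% of the windows, and the windows of the other Osbpl5 starts hold 1 and 18, while the window of Slc22a18 holds 0. The Kcnq1ot1 window also holds 3 copies of CCAAT, counted on both strands, and 2.79% of all windows hold as many. The letters TATAAA were found in the Phlda2 window and in 12.4% of all windows.

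Total counts lay between 7832458 and 23739871 over the 52 oocyte libraries. The share of reads mapped, by the study's own list, was under 80% in 8 of 18 WT, 3 of 8 Dnmt3a mutant, 8 of 8 double mutant and 3 of 10 MII libraries and in none of the Dnmt3L mutant libraries, so this class is partly confounded with genotype. Among WT FGOs the class under 80% was replicates 1 to 8 and the other class replicates 9 to 18. The mapping rate therefore cannot be told apart from any other difference between these 2 sets of libraries. Between WT FGOs of the 2 classes, 25.4% of genes passed the test. Kcnq1ot1 was 2.30 ± 0.35 higher (log2 ± SE, edgeR quasi-likelihood adjusted p = 0.000135) in the class under 80%. None of the 7 other members tested there passed. Oocyte markers were abundant in every group, with summed levels of at least 5785 CPM, counts scaled by the total of each library. The summed level of 8 granulosa markers, genes of the cells that surround the oocyte, was 43.7 to 173 CPM in WT FGOs, 36.9 to 71.4 in Dnmt3L mutants, 38.4 to 91.8 in Dnmt3a mutants, 16.9 to 37.0 in double mutants and 22.7 to 44.8 in MII oocytes. Fewer surrounding cells and less RNA per cell cannot be told apart in such libraries. Their part in the results below was not tested.

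In WT FGOs, Kcnq1, a potassium channel subunit, had the highest level per length of the cluster, at 6.54 ± 0.67 CPM per kilobase of exon (SD, n = 18). Tssc4, a factor of spliceosome assembly, followed at 3.33 ± 0.84, and Cdkn1c, the cyclin-dependent kinase inhibitor p57, at 3.25 ± 0.76, which did not differ beyond their spread. Phlda2, a brake on placental growth, had 2.50 ± 0.86, next to Dhcr7, the last enzyme of cholesterol synthesis, at 1.76 ± 0.26. Osbpl5, an oxysterol-binding protein relative, was at 1.61 ± 0.57 and overlapped in spread with Dhcr7. The tetraspanin Cd81 was at 0.73 ± 0.32, the transporter Slc22a18 at 0.26 ± 0.20 and Kcnq1ot1 at 0.14 ± 0.15 per kilobase. Ascl2, a transcription factor of the trophoblast, gave 16 counts in all 18 WT FGOs together. It had a count in 5 of 18 WT, 1 of 8 Dnmt3L mutant, 1 of 8 Dnmt3a mutant, 4 of 8 double mutant and 2 of 10 MII libraries. Every one of these counts was even. Ascl2 did not pass the filter on low counts, and the other 9 members were tested.

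**Figure D1:**
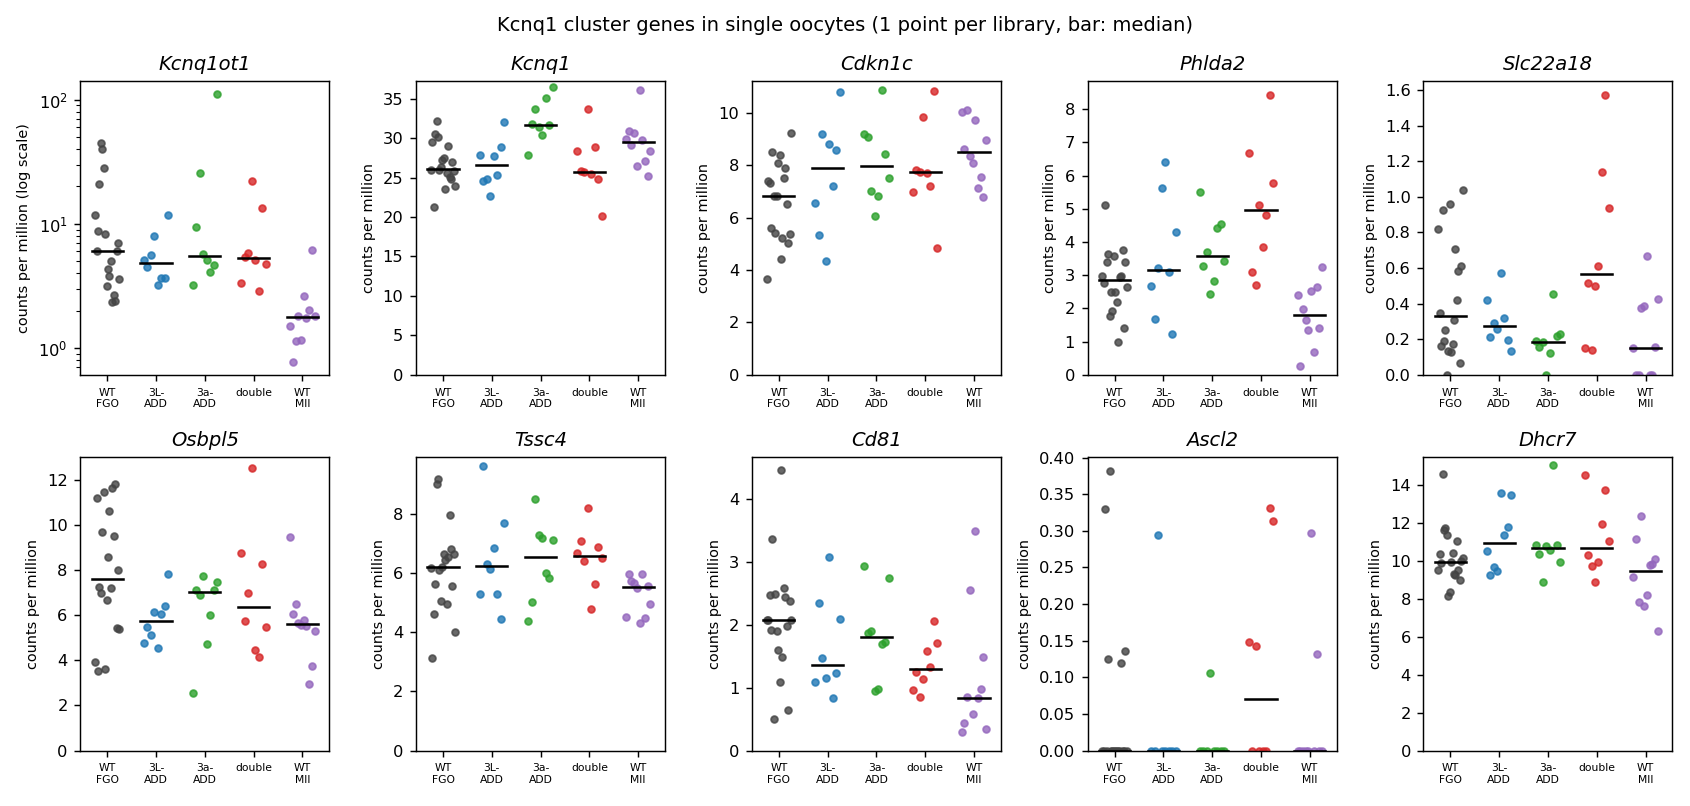
Levels (CPM) of the 10 cluster genes in single oocytes (3L-ADD, Dnmt3L ADD/ADD; 3a-ADD, Dnmt3a ADD/ADD), with 1 point per library and a bar at the median; the axis of Kcnq1ot1 is logarithmic. All 8 Dnmt3a ADD/ADD points of Kcnq1 lie above the WT median of 26.1, and Kcnq1ot1 is lowest in MII oocytes.

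Kcnq1, with the clearest response, was higher in Dnmt3a ADD/ADD FGOs. Its levels in the 8 libraries were 27.9, 31.7, 33.7, 31.4, 30.4, 35.1, 31.7 and 36.4 CPM, against a range of 21.3 to 32.1 and a median of 26.1 in WT FGOs. All 8 lay above the WT median, and 3 of 8 lay above every WT library, so the groups overlapped. The rise was 0.31 ± 0.06 (log2 ± SE, 1.24-fold, edgeR quasi-likelihood adjusted p = 0.00101). It was the only member called of 9 tested, beside 15.7% of all genes tested. Within the class of at least 80% mapped reads (5 mutant and 10 WT libraries) the difference was 0.33 ± 0.07 (edgeR adjusted p = 0.00553), and within the class under 80% (3 and 8 libraries) it was 0.29 ± 0.12 (edgeR adjusted p = 0.185). Kcnq1ot1, whose exon overlaps that of Kcnq1, was at 25.5, 4.07 and 110 CPM in the 3 libraries with the highest Kcnq1, replicates 3, 6 and 8.

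In Dnmt3L ADD/ADD FGOs, Kcnq1 lay between 22.7 and 32 CPM, with 4 of 8 libraries above the WT median, and its log2 difference was 0.03 ± 0.07. In double mutant FGOs it lay between 20.2 and 33.7 CPM, and its difference from WT was -0.03 ± 0.07. The effect of the Dnmt3a mutation on Kcnq1 was thus 0.31 beside normal Dnmt3L and -0.06 among Dnmt3L mutants (log2). The second effect sets double mutants, all under 80% mapped reads, against Dnmt3L mutants, all of at least 80%. Genotype and mapping class cannot be told apart in it. The non-additive term, the difference between these effects, was -0.36 ± 0.10 (edgeR quasi-likelihood adjusted p = 0.00495). This term passed the test for 35.6% of all genes, and for 14.2% with the mapping class in the fit. Among the members Kcnq1 passed, and Slc22a18 is given below as a description without a test.

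Slc22a18 was counted only 0 to 19 times in any oocyte library. Its Dnmt3a ADD/ADD libraries held 2, 2, 3, 0, 2, 8, 2 and 4 counts, and its double mutant libraries 2, 7, 2, 7, 10, 17, 19 and 12. The log2 difference from WT was -1.10 ± 0.51 (edgeR adjusted p = 0.13) in the first and 0.64 ± 0.43 (edgeR adjusted p = 0.331) in the second, neither of which passed. At least 10 counts were reached in 6 WT and 4 double mutant libraries and in 0 libraries of either single mutant, so the gene entered the fit only through the groups that its non-additive term (2.28 ± 0.74) sets against the others, and no test of that term is given.

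Phlda2 was higher in double mutant FGOs, and was the 1 member of 9 called there, beside 12.2% of all genes. The 8 libraries had 6.69, 3.09, 2.70, 5.13, 3.86, 4.82, 8.44 and 5.79 CPM, against 0.99 to 5.11 and a median of 2.86 in WT FGOs. In 7 of 8 the level was above the WT median, and in 4 it was above every WT library. The difference was 0.83 ± 0.22 (log2 ± SE, 1.77-fold, edgeR quasi-likelihood adjusted p = 0.0146). It was 0.70 (edgeR adjusted p = 0.0552) without double mutant replicate 7, and 0.75 ± 0.26 (edgeR adjusted p = 0.226) against the 8 WT libraries of the same mapping class. The summed granulosa markers of these 8 libraries were below all WT FGOs, with 6 of 8 markers called lower. In the single mutants Phlda2 lay between 1.24 and 6.39 CPM (Dnmt3L ADD/ADD, log2 difference 0.33 ± 0.23) and between 2.43 and 5.50 CPM (Dnmt3a ADD/ADD, 0.46 ± 0.23), and neither passed.

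The other maternally expressed gene of the inner cluster, Cdkn1c, had medians of 7.89, 7.97 and 7.73 CPM in Dnmt3L, Dnmt3a and double mutants, against 6.82 in WT. Its log2 differences were 0.23 ± 0.15, 0.33 ± 0.15 and 0.22 ± 0.15, and none passed. The 3 mutants share the WT libraries, so these values are not independent. The relatives of Cdkn1c, Cdkn1a (p21) and Cdkn1b (p27), were not called in any mutant, with log2 differences for Cdkn1a of 0.79, -0.28 and -0.23.

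Of the outer genes, none was called in a mutant. Osbpl5 in Dnmt3L ADD/ADD FGOs lay between 4.57 and 7.82 CPM, with 7 of 8 libraries under the WT median of 7.62, and differed by -0.42 ± 0.20 (edgeR adjusted p = 0.209). Within the class of at least 80% mapped reads the same difference was -0.54 ± 0.16 (edgeR adjusted p = 0.0328). Against the same WT libraries with the other genotypes in the fit, 0 members were called, beside 6.85% of all genes. With the mapping class as a covariate it was 0 too, beside 4.27%. Cd81 lay under the WT median of 2.08 CPM in 8 of 8 double mutant libraries (0.85 to 2.07 CPM), yet all 8 stayed within the WT range, and the difference of -0.64 ± 0.27 did not pass (edgeR adjusted p = 0.105). Tssc4 differed by at most 0.10 and Dhcr7 by at most 0.15 on the log2 scale in any mutant, with SEs of 0.13 and 0.09.

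Kcnq1ot1 varied more between libraries than between genotypes. The lowest, median and highest levels were 2.35, 6.04 and 44.4 CPM in WT, 3.20, 4.81 and 11.7 in Dnmt3L mutants, 3.23, 5.46 and 110 in Dnmt3a mutants and 2.88, 5.30 and 22.3 in double mutants. The groups overlapped almost wholly, and 1 library, Dnmt3a ADD/ADD replicate 8, was above every WT FGO. The log2 differences were -0.96 ± 0.58 in Dnmt3L mutants, 0.92 ± 0.51 in Dnmt3a mutants and -0.56 ± 0.56 in double mutants, and none passed (edgeR adjusted p = 0.323, 0.22 and 0.531). In Dnmt3L ADD/ADD FGOs none of the 9 members passed, beside 6.13% of all genes, and 1 had an unadjusted p under 0.05, Osbpl5. DESeq2 also called 0 members there.

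The sign of the Kcnq1ot1 difference depended on the libraries compared. In Dnmt3L ADD/ADD FGOs it was 0.49 against WT FGOs of at least 80% mapped reads and -1.80 against the others (edgeR adjusted p = 0.0321). In Dnmt3a ADD/ADD FGOs it was 2.37 (edgeR adjusted p = 0.00156) against WT FGOs of at least 80% mapped reads, 0.07 against the others and -0.40 without replicate 8. Within the shared class of at least 80% the Dnmt3a difference was 1.18 ± 0.37 (edgeR adjusted p = 0.0532), and within the class under 80% it was 1.01 ± 0.78 (edgeR adjusted p = 0.45). In double mutant FGOs, all of the class under 80%, it was -1.40 ± 0.46 (edgeR adjusted p = 0.215) within that class. The non-additive term of Kcnq1ot1 was -0.51 ± 0.84, and -2.95 ± 0.76 (edgeR adjusted p = 0.00719) with the mapping class in the fit.

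Kcnq1ot1 moved with other long unspliced RNA. This was examined after its values had been seen. Across 42 FGOs its log2 CPM followed the log2 of the summed CPM of the 151 other single-exon genes of at least 5000 bases, Malat1 among them. Pearson r was 0.895 and Spearman rho 0.696 (permutation p = 2e-05 for both, the smallest that 100000 resamples give, adjusted 6e-05 over 6 relations). Without the 2 libraries farthest from the median, r was 0.826. In the 8 WT FGOs under 80% mapped reads r was 0.964 (rho 0.952, exact permutation p = 0.00129 and 0.00114, adjusted 0.00258 and 0.00228, r = 0.978 without the 2 farthest). In the 10 WT FGOs of at least 80% it was -0.104 (rho -0.0909, permutation p = 0.796 and 0.806, adjusted 0.796 and 0.814, r = -0.157 without the 2 farthest), so the relation was not detectable there. Points share library depth and mapping class. Malat1, a long nuclear RNA, gave r = 0.827 over the 42 FGOs (rho 0.722, permutation p = 2e-05 for both, adjusted 6e-05, 0.75 without the 2 farthest). It gave 0.876 in the first WT class (rho 0.857, exact permutation p = 0.0061 and 0.0107, adjusted 0.00915 and 0.0161, r = 0.906 without the 2 farthest). It gave 0.12 in the second (rho 0.0909, permutation p = 0.727 and 0.814, adjusted 0.796 and 0.814, r = 0.289 without the 2 farthest). In Dnmt3a ADD/ADD replicate 8 Malat1 reached 955 CPM, against 553 in the highest WT FGO. The long single-exon sum of that replicate, Malat1 included, was 1542 CPM, so the relations with the sum and with Malat1 are not independent.

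**Figure D2:**
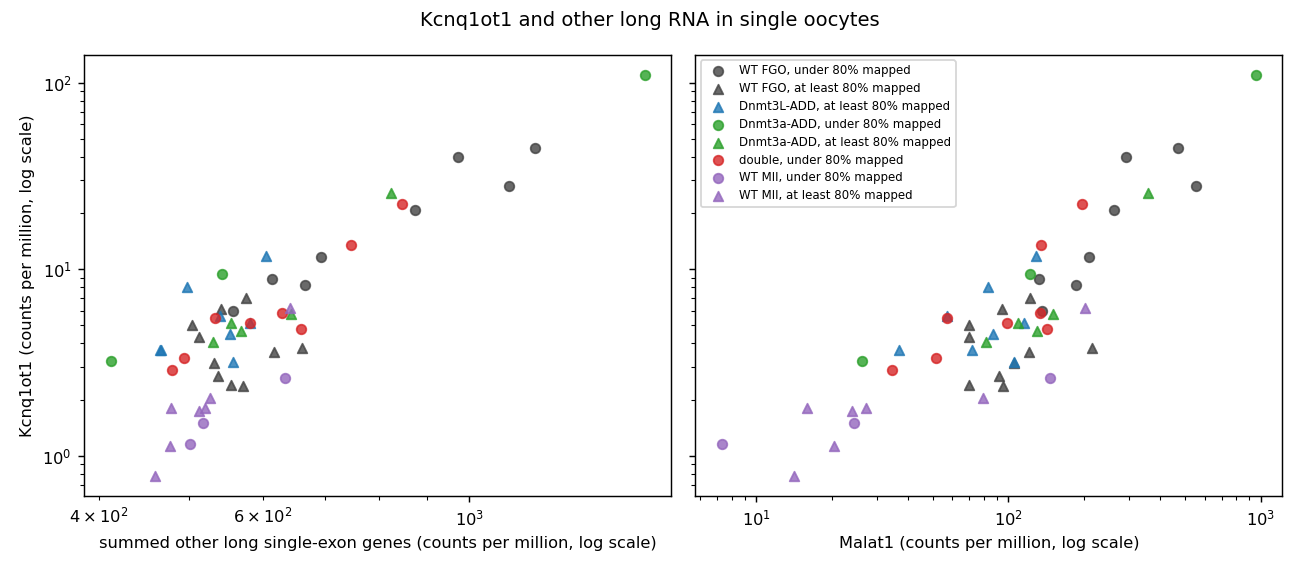
Kcnq1ot1 in each oocyte library against the summed level of 151 other long single-exon genes (left) and against Malat1 (right), in CPM on log axes, with colours for groups and shapes for the class of mapped reads. The WT FGOs under 80% mapped reads spread upward along both axes, and Dnmt3a ADD/ADD replicate 8 lies highest at 110.

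Kcnq1ot1 was lower in MII oocytes than in WT FGOs. It had 1.5, 0.78, 1.13, 1.81, 1.16, 2.60, 1.73, 2.04, 6.17 and 1.79 CPM in the 10 MII oocytes. In 8 of the 10 this was below every WT FGO, and replicate 9 stood apart from the others. The level fell by 2.36 on the log2 scale (SE 0.55, 5.14-fold, edgeR quasi-likelihood adjusted p = 0.00065). The fall was 1.57 (SE 0.48, edgeR adjusted p = 0.00807) with the mapping class in the fit and 1.02 (SE 0.23, edgeR adjusted p = 0.000615) with the long single-exon level in the fit, both of them log2 values, and the log2 difference was -2.72 without replicate 9. The long single-exon sum had medians of 515 CPM in MII oocytes and 595 in WT FGOs, and Malat1 24.3 and 127.

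Kcnq1 rose by 0.20 ± 0.06 (edgeR adjusted p = 0.00566), from a median of 26.1 to 29.5 CPM, and Cdkn1c by 0.43 ± 0.13 (edgeR adjusted p = 0.00654), from 6.82 to 8.50 CPM, each with 9 of 10 MII oocytes above the WT FGO median and with overlapping groups. The rise of Kcnq1 was not called with totals in place of TMM scaling (0.13, adjusted p = 0.0942). Cd81 fell by 0.74 (log2, SE 0.29, edgeR adjusted p = 0.0398), from a median of 2.08 to 0.84 CPM, and this call held in 15 of 28 fits that left out 1 library. Among granulosa markers, 6 of 8 were lower in MII oocytes, and Amh was at 0 in all 10. Tssc4 was under the WT FGO median in 10 of 10 MII oocytes but differed by only -0.16 ± 0.12. Phlda2, Osbpl5 and Slc22a18 differed by -0.56 ± 0.25, -0.42 ± 0.19 and -0.95 ± 0.51, and did not pass. In all, 2 of 9 members rose and 2 fell, beside 39.1% of all genes called in this comparison. These levels are relative to the other RNA of each library, so a change in RNA per oocyte was not measured.

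**Figure D3:**
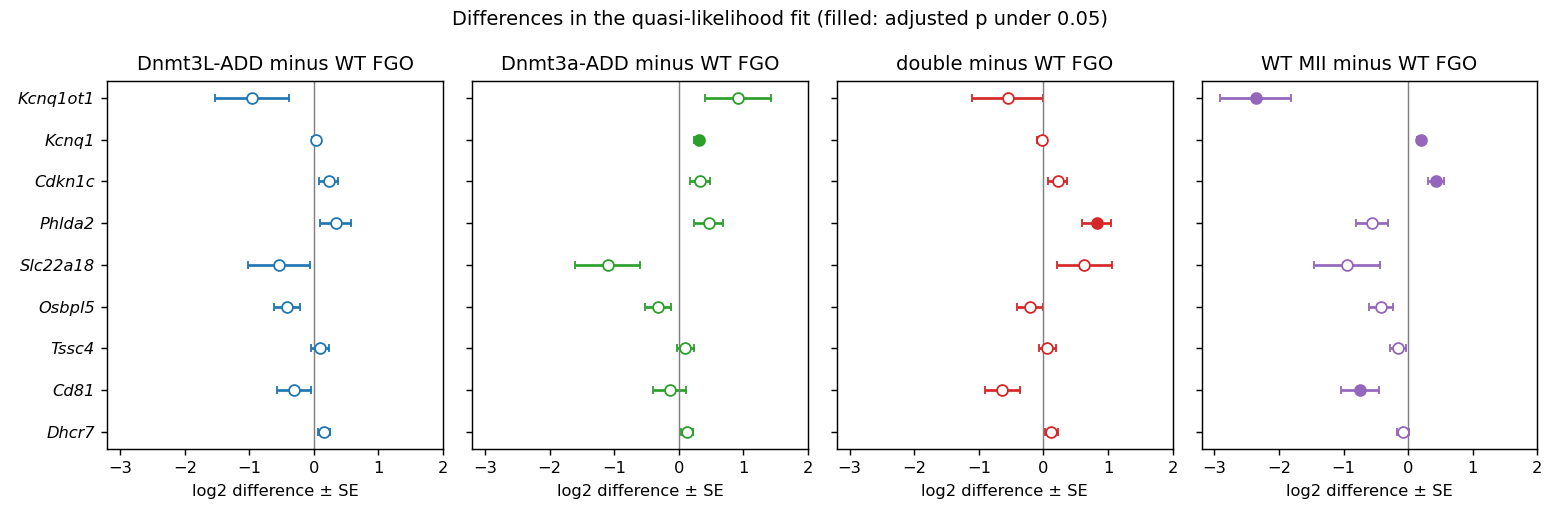
Log2 differences (± SE) of 9 cluster genes from WT FGOs in the 3 mutants and in MII oocytes, from the quasi-likelihood fits, with filled points for adjusted p under 0.05. Kcnq1 in Dnmt3a ADD/ADD FGOs (0.31), Phlda2 in double mutant FGOs (0.83) and 4 genes in MII oocytes are filled.

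The median log2 difference of the 9 members was 0.03, 0.13 and 0.06 in Dnmt3L, Dnmt3a and double mutants, against -0.03, -0.03 and -0.01 over all genes tested. In MII oocytes it was -0.42, against -0.05. Between the members lie 32 other genes of the tables, of which 4 were tested, Nap1l4, Cars, Nadsyn1 and Gm23297. Nap1l4, a histone chaperone gene next to Phlda2, was highest of them per length, with 319 ± 31.2 CPM in WT and 276 ± 5.07 in double mutant FGOs, where it fell by 0.23 (log2, SE 0.06, edgeR adjusted p = 0.00885). Cars, a tRNA synthetase gene, rose by 0.22 ± 0.07 in Dnmt3a ADD/ADD FGOs (edgeR adjusted p = 0.0282). Neither Trpm5 nor Tspan32 was tested, at 0.03 and 0.01 CPM in WT FGOs.

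In the embryos the alleles of Kcnq1ot1 were counted almost equally. Embryo 1 had 297 maternal and 339 paternal counts, embryo 2 had 186 and 185, and embryo 3 had 122 and 154, or 84.4, 43.4 and 39.4 CPM of all allelic counts. The maternal share was 46.7% (95% Wilson interval 42.9 to 50.6), 50.1% (45.1 to 55.2) and 44.2% (38.5 to 50.1), with a mean of 47.0% ± 2.98 (SD, n = 3). The median share over autosomal genes with at least 10 allelic counts was 51.4%, 58.8% and 51.3%, so Kcnq1ot1 lay below it in each embryo. Igf2, paternally expressed in normal embryos under a sperm-methylated region of the same chromosome, had maternal shares of 0.488%, 2.31% and 11.8%, and its maternally expressed partner H19 had 98.8%, 96.1% and 75.4%. Kcnq1ot1 exceeded Igf2 by 42.2 ± 8.45 percentage points (SD, n = 3, higher in 3 of 3 embryos, exact two-sided sign-flip permutation p = 0.25, the smallest that 3 pairs allow). Intervals of this kind cover counting error only. Igf2r, whose oocyte-methylated region also makes a long noncoding RNA, Airn, had maternal shares of 43.0%, 70.6% and 55.9%. Airn itself had 20 maternal and 6 paternal counts in embryo 1 (76.9%, 57.9 to 89.0), 2 and 0 in embryo 2 and 4 and 0 in embryo 3. It is antisense to Igf2r, and whether the allelic counting used strand is not given in the sources used here.

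Genes that are normally maternally expressed in the embryo were thinly covered. The tables hold only reads assigned to an allele, and Cdkn1b, a gene of most cell types, was at 0 in all 3 embryos, so a 0 there limits the allelic count and not expression. Cdkn1c had 0 counts in embryo 1, which allows up to 0.398 CPM of allelic counts, 9 maternal and 3 paternal counts in embryo 2 and 7 and 5 in embryo 3. Its maternal shares of 75% (46.8 to 91.1) and 58.3% (32 to 80.7) reach from below equality to strong bias, so equal and maternal expression could not be told apart at this depth. Kcnq1 had 67 maternal and 0 paternal counts in embryo 2 (share 100%, 94.6 to 100) and 0 of either allele in embryos 1 and 3. Its share thus rests on 1 embryo, in which Dcn, Erv3 and Prl8a2, markers of maternal decidua given below, also had 0 paternal counts. The part of decidua of the recipient female in the Kcnq1 counts was not tested. Slc22a18 had 3 counts in all embryos together.

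Phlda2 and Ascl2, genes with roles in the placenta, were highest in embryo 3, as were the trophoblast markers. Phlda2 had 4, 34 and 72 allelic counts in the 3 embryos, or 0.531, 3.98 and 10.3 CPM of allelic counts, and Ascl2 had 7, 6 and 22, or 0.929, 0.702 and 3.14. The 12 trophoblast markers summed to 23, 237 and 320 CPM of allelic counts, with 9, 6 and 7 of them at 0, and Elf5 had 3, 595 and 587 counts. Yolk sac endoderm markers summed to 116, 3051 and 1220 CPM, and erythroid markers to 3837, 14 and 4.57, so the 3 embryos differed in tissue content. The 8 markers of maternal decidua, here tissue of the ICR recipient, summed to 128, 90.9 and 56.9. Of these counts, 45.8%, 71.2% and 54.5% were assigned to the maternal allele. How reads of the recipient were assigned to alleles is not given in the sources used here. In embryo 1 Des, a muscle gene too, gave 89.3 of the 128 at a maternal share of 42.2%. The maternal and paternal counts of Dcn were 11 and 5, 82 and 0, and 4 and 2. Those of Erv3 were 6 and 0, 61 and 0, and 17 and 0. Those of Prl8a2 were 3 and 0, 53 and 0, and 13 and 0, so all 3 peaked in embryo 2. Of the other markers, Des, Hand2 and Wnt4 were highest in embryo 1, at 89.3, 12.7 and 8.49 CPM. Bmp2 and Igfbp1 also peaked in embryo 2, but with 99 and 12 paternal counts there. The part of decidua of the recipient in the shares of the cluster genes was not tested. The maternal share of Phlda2 was 47.1% (31.5 to 63.3) in embryo 2 and 37.5% (27.2 to 49.0) in embryo 3, and that of Ascl2 45.5% (26.9 to 65.3) in embryo 3.

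**Figure D4:**
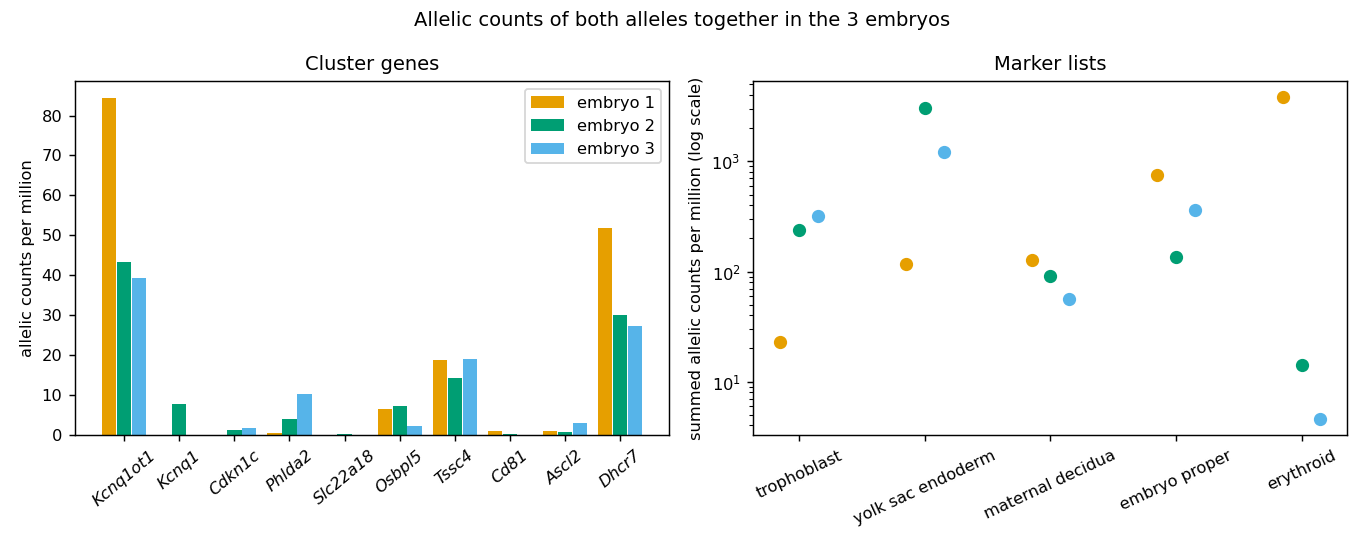
Allelic counts of both alleles together (CPM) in the 3 embryos, for the cluster genes (left, bars) and summed over marker lists (right, points on a log axis). Phlda2 rises from 0.531 to 10.3 between embryos 1 and 3, and trophoblast markers from 23 to 320.

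Osbpl5, Tssc4 and Dhcr7 had mean maternal shares above 50%, while Ascl2 and Cd81, the other outer genes, had 15 maternal and 20 paternal and 5 and 6 counts over the 3 embryos together. Osbpl5 had maternal shares of 71.4% (57.6 to 82.2), 93.7% (84.8 to 97.5) and 81.2% (57 to 93.4), or 82.1% ± 11.1 (SD, n = 3), above the autosomal median in 3 of 3 embryos. Tssc4 had 54.6%, 78.9% and 72.2% (68.6% ± 12.5) and Dhcr7 had 52.8%, 67.7% and 62.3% (60.9% ± 7.53), each above the autosomal median in all 3. In embryo 1 the intervals of Tssc4 (46.4 to 62.6) and Dhcr7 (47.9 to 57.7) include the autosomal median of 51.4%. For Osbpl5, Tssc4 and Dhcr7 the share was lowest in embryo 1 and highest in embryo 2, the embryo with the highest autosomal median. The part of tissue content in these shares was not tested.

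Osbpl5 exceeded Kcnq1ot1 by 35.1 ± 9.54 percentage points of maternal share, Tssc4 by 21.5 ± 11.8 and Dhcr7 by 13.9 ± 6.77 (SD, n = 3, each higher in 3 of 3 embryos, exact two-sided sign-flip permutation p = 0.25 and adjusted 0.25 over the 5 pairs of genes compared). The fit of both alleles with the embryo as a block tested 5 members and called 0, beside 0.812% of the genes tested. The maternal minus paternal log2 differences were -0.39 ± 0.14 for Kcnq1ot1 (edgeR quasi-likelihood adjusted p = 0.255), 2.13 ± 0.60 for Osbpl5 (0.2), 0.95 ± 0.35 for Tssc4 (0.262), 0.43 ± 0.20 for Dhcr7 (0.341) and -0.44 ± 0.56 for Phlda2 (0.696). Unadjusted p was under 0.05 for 3 of the 5, Kcnq1ot1, Osbpl5 and Tssc4, and DESeq2 also called 0. H19 and Igf2, at 4.02 ± 1.07 and -5.56 ± 1.10, did not pass in this fit of 3 embryos either (edgeR adjusted p = 0.187 and 0.128). Between the members, Nap1l4 had maternal shares of 64.4%, 63.4% and 62.5%, and Cars 48.2%, 53.0% and 48.6%.

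**Figure D5:**
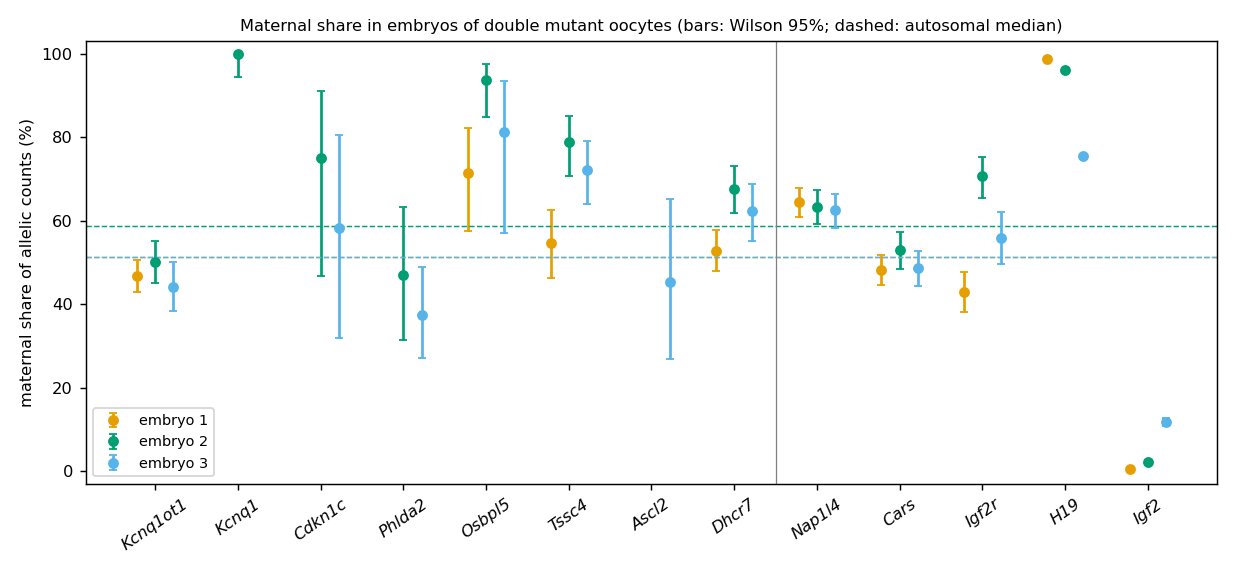
Maternal share of allelic counts (%) in the 3 embryos for genes with at least 10 allelic counts, cluster genes left of the grey line and comparison genes right of it, with 95% Wilson intervals and the autosomal median of each embryo as a dashed line. Kcnq1ot1 lies between 44.2% and 50.1%, Igf2 between 0.488% and 11.8%, and Osbpl5 between 71.4% and 93.7%.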

How the data were processed

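The authors aligned reads to mm10 with STAR and deposited raw counts of reads per gene for 52 single-oocyte libraries, and allele-specific counts for embryos in 1 table for each allele. The methods name featureCounts and HTSeq for counting. The annotation release and the handling of overlapping genes are not given in the sources used here. In the allelic tables, 8 columns named for wild-type embryos, which match no sample of the series, were not used. Counts were tested with edgeR 4.0.16 in R 4.3.3 by its quasi-likelihood test, after TMM scaling and filterByExpr (minimum count 10). Calls had a p under 0.05 after Benjamini-Hochberg adjustment over every gene tested. FGO genotypes shared 1 fit, MII oocytes were tested in a fit of all 52 libraries, and alleles in a fit with the embryo as a block. CPM were computed from the total count of each library. SE is the log2 difference divided by the square root of F. DESeq2 1.42.0 was an alternative. Total counts per library were 7832458 to 23739871, and the biological coefficient of variation was 25.2% over 42 FGOs. Embryos had 6998944 to 8547786 allelic counts. Maternal shares needed 10 allelic counts and carry Wilson 95% intervals (statsmodels 0.14.6), and a count of 0 allows 3 counts. Permutation tests used scipy 1.17.1. The procedures were tested on simulated data. All 10 members and the genes of fixed lists were named, and the members and lists were chosen with earlier results of these data known. The class of mapped reads (80%) comes from a supplementary list of the study. Libraries of a group always differed by more than counting noise (chi-square per degree of freedom at least 5.39). Alternatives were other tests, scalings, filters, covariates, call rules, WT libraries of 1 class and each library left out in turn. The long single-exon level as a covariate was chosen after seeing the data. The result of 1 gene list is not reported here.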

Additional observations from a re-analysis of the deposited data

Results flagged for a closer look

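In groups of 4 to 10 libraries, the highest or lowest level of each member was compared with its group by Dixon's criterion. For normally distributed values, chance meets it in about 1 in 20 groups. It was met in 7 of 40 groups. A group with a single library above 0 always meets it, as for Ascl2 in both single mutants. The 7 groups therefore cannot be set against that rate. Kcnq1ot1 stood apart in Dnmt3a ADD/ADD replicate 8 at 110 CPM (others 3.23 to 25.5) and in MII replicate 9 at 6.17 CPM (others 0.777 to 2.60). Kcnq1 was at 36.1 CPM in MII replicate 6 (others 25.1 to 30.9), and Dhcr7 at 15 CPM in Dnmt3a ADD/ADD replicate 6 (others 8.88 to 10.8). Ascl2 stood apart at 0.294 CPM in Dnmt3L ADD/ADD replicate 3 and at 0.106 CPM in Dnmt3a ADD/ADD replicate 4, where the other libraries of the group were at 0, and at 0.297 CPM in MII replicate 6 (others up to 0.132), on 4, 2 and 4 counts.

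The effect of the Dnmt3a mutation on Kcnq1 differed with the Dnmt3L genotype by the non-additive term of the edgeR fit. It was -0.36 on the log2 scale and -0.39 with the mapping class in the fit. The term was called in both, beside 35.6% and 14.2% of all genes. The term of Slc22a18 was 2.28, from effects of -1.10 beside normal Dnmt3L and 1.18 among Dnmt3L mutants. It is a description, since the gene passed the filter only through WT and double mutant libraries, and it was 1.87 with the replicate number as a block.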

How the results depend on the processing

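Of 683 recomputed values of single members, 642 kept their direction and their side of the threshold (a change of sign of an uncalled value by less than 1 SE counts as kept), and of 84 recomputed summary values 68 stayed within 1.5 times. Requiring a fold change over 2 left 0 members called in Dnmt3a mutants (2.05% of all genes), 0 in double mutants (1.65%) and 1 in MII oocytes (Kcnq1ot1, 9.2%). Kcnq1 was then not called for the non-additive term (10.3% of all genes). With the mapping class as a covariate 2 members were called in Dnmt3a ADD/ADD (Kcnq1 and Kcnq1ot1, beside 16.2% of all genes) and 0 in double mutant FGOs (2.61%). Against WT FGOs of at least 80% mapped reads 2 were called in Dnmt3a ADD/ADD FGOs (14.6% of all genes), and against those under 80% 1 in Dnmt3L ADD/ADD (Kcnq1ot1, 22%) and 0 in double mutant FGOs (1.43%). Leaving out each library in turn gave 0 to 2 calls in double mutant FGOs and 3 to 5 in MII oocytes (35.4% to 40.8% of all genes). In double mutant FGOs it gave 0 without double mutant replicate 7, beside 7.77% of all genes. It gave 2 there without WT replicate 6, which adds Cd81, beside 18.9%. The non-additive term of Kcnq1 was called in 42 of 42 such fits, which called 31.0% to 37.2% of all genes. Slc22a18 failed the filter without WT replicate 1, 4, 9, 13 or 18. Setting the autosomal median share of each embryo to 50% moved the mean maternal share of Kcnq1ot1 to 43.2%.

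Reversals were all of uncalled values. Kcnq1ot1 in Dnmt3L ADD/ADD FGOs was 0.46 with the mapping class as a covariate, 0.40 with the long single-exon level and 0.49 against WT FGOs of at least 80% mapped reads. In Dnmt3a ADD/ADD FGOs it was -0.40 (without replicate 8) to 1.17 with 1 library left out, in double mutant FGOs 0.90 against WT FGOs of at least 80% mapped reads, and its non-additive term was -0.91 to 0.80 with 1 library left out, the latter without Dnmt3a ADD/ADD replicate 8. The cause was not tested. DESeq2 gave Kcnq1ot1 no adjusted p in Dnmt3a ADD/ADD FGOs.

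Replicate numbers did not pair the libraries, since deviations of same-numbered libraries correlated between -0.517 and 0.471 for double mutant and WT FGOs. With the replicate number as a block 1 member was called in Dnmt3L ADD/ADD FGOs (Kcnq1ot1, beside 18% of all genes), 0 in double mutant FGOs (1.44%) and 1 for the non-additive term (Kcnq1, 41.3%), and the block turned Kcnq1ot1 to -0.71 in Dnmt3a ADD/ADD FGOs and to 1.14 for the non-additive term, and Osbpl5 to 0.013 in double mutant FGOs. Few counts limit Slc22a18, Ascl2 and Cd81 in oocytes and Cdkn1c, Kcnq1, Slc22a18 and Cd81 in embryos.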
